A study of Saccharomyces cerevisiae with 12 samples.

Results

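The cytosolic chaperonin CCT, also called TRiC, is built from 8 different subunits, each encoded by its own gene in budding yeast: TCP1 and CCT2 to CCT8. The 8 genes were found by their names in the deposited table of 5045 genes, by a rule that uses no measured value. All 8 passed the filter on low values that left 4937 genes for testing. CCT is a barrel of a pair of stacked rings, in which every subunit holds a fixed place and the chamber closes by use of ATP. It folds newly made actin and tubulin and a set of other proteins, many of them with WD40 repeats, and all of its subunit genes are essential in Saccharomyces cerevisiae. Many of its clients reach it through prefoldin, a smaller chaperone complex that binds chains as they are made, or with the help of phosducin-like proteins.

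The data came from polyA RNA of 1 yeast strain, Sis1-AA, grown in YPD, a rich medium. In the heat shock course cells were moved to 39 °C, with 1 untreated library at 30 °C (time 0) and 1 library each after 15, 30, 60, 90 and 120 min. In the rapamycin course the same strain received 1 µM rapamycin, with 1 library without rapamycin (time 0) and 1 at each of the same times; the labels give no temperature for it. Sis1 is a J-domain protein that works with Hsp70, and in the anchor-away method (AA) rapamycin links a tagged protein to an anchor, which then takes it out of the nucleus. All 12 libraries, the untreated ones included, come from this strain, and none is labelled as coming from a strain without the Sis1 anchor or as given a vehicle. An effect of Sis1 leaving the nucleus and any other effect of rapamycin therefore cannot be told apart. No time point was replicated. A lower value in every cell and a larger loss in some cells of the culture cannot be told apart in such bulk RNA.

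The values are read counts divided by 1 size factor per library, as far as their steps show, and are called normalized counts here. The libraries held 2991418 to 4379304 reads in the listed genes, and each CCT gene had between 572 and 2637 reads in each library. Counting error was thus small beside the heat shock changes. For CCT8 after 15 min of heat, for example, the exact 95% counting interval of the log2 change ran from -1.47 to -1.23. Such intervals cover counting error only, and not the difference between one culture and another. In the heat shock course the sum of all values was 4266203 before heat and 4381101 at 15 min. It then fell with time, to 3048499 in the 120 min library.

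In the R64 assembly (sacCer3) the 8 genes each have 1 coding exon and overlap no other annotated gene. They lie on 3 chromosomes. TCP1 (YDR212W) is at chrIV:887232-888911, CCT4 (YDL143W) at chrIV:199996-201582 and CCT6 (YDR188W) at chrIV:836421-838061, all on the plus strand. CCT2 (YIL142W) is at chrIX:83302-84885 on the plus strand. CCT3 (YJL014W) is at chrX:407558-409162, CCT5 (YJR064W) at chrX:555914-557602 and CCT7 (YJL111W) at chrX:207877-209529, on the plus strand, and CCT8 (YJL008C) is at chrX:419957-421663 on the minus strand. The coding lengths were close to each other, from 1584 bp (CCT2) to 1707 bp (CCT8), so the genes could be compared in level with little effect of length.

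The promoters of the 8 genes are shown by a stretch of sequence that all of them hold. Any link of that stretch to the fall of the genes in heat was not tested. The window read was 250 bases before to 50 bases after the first base of the coding sequence, from RefSeq R64. Each of the 8 windows held the heptamer GTGGCNA on at least 1 strand, beside 9.07% of all 5016 windows of the same length. The heptamer was found by reading these 8 windows, so the count has no test. In its form GTGGCAA it lies within the proteasome-associated control element, GGTGGCAAA, to which the transcription factor Rpn4 binds. TCP1, CCT4, CCT5, CCT6 and CCT8 hold that form, while CCT2, CCT3 and CCT7 hold only GTGGCGA or GTGGCCA. The lines below run 5′ to 3′ on the strand that holds the heptamer, which is in capitals with 10 bases on either side. The place given, relative to the coding start, is that of the heptamer base farthest from it. In the copies of CCT3 and CCT4, which lie on the strand opposite to the gene, that is the last base of the heptamer as printed.
TCP1, chrIV:887073-887099, plus strand, -149: cttgtcctaaGTGGCAAagaactgaaa
CCT2, chrIX:83189-83215, plus strand, -103: tctcttcgcgGTGGCGAgtttaaaaga
CCT2, chrIX:83238-83264, plus strand, -54: aggatgaaagGTGGCCAttaaataggc
CCT3, chrX:407442-407468, minus strand, -106: actttattgaGTGGCGAtttgctattt
CCT4, chrIV:199829-199855, minus strand, -157: cagtttccccGTGGCAAgtgatagtaa
CCT4, chrIV:199860-199886, minus strand, -126: gcctttcttgGTGGCGAaacgaaaaaa
CCT5, chrX:555821-555847, plus strand, -83: cttggtggatGTGGCAAatgaggtgtg
CCT6, chrIV:836237-836263, plus strand, -174: ttttgctttgGTGGCAAaattttcgct
CCT7, chrX:207711-207737, plus strand, -156: taatatttaaGTGGCGActttttcatc
CCT8, chrX:421753-421779, minus strand, -106: acctccgctaGTGGCAAaaaaaagtga

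CCT2 and CCT4 hold the heptamer at 2 places, and CCT8 holds a further copy inside its coding sequence, 12 bases from the start. The whole element GGTGGCAAA was found in the CCT6 window alone among the 8, beside 1.32% of all windows. The windows were also searched, on both strands, for the heat shock element in its shortest forms, for the stress response element AGGGG and for 2 elements common before ribosome biogenesis genes. GAANNTTC was in 0 of 8 windows, beside 12.0% of all windows, and TTCNNGAA in 1 of 8 (CCT7), beside 13.0%. AGGGG was in 0 of 8, beside 21.0%. GATGAG was in 2 of 8 (CCT2, where it runs into the start codon, and CCT5), beside 20.3%, and AAAATTTT in 2 of 8 (CCT5 and CCT6, where it overlaps the heptamer), beside 9.95%. A match here is a run of letters and not a shown binding site, and no match says only that these letters are not in the window. The windows of CCT8, whose RNA fell most in the heat, and of CCT5, whose RNA fell least, are shown whole, read on each gene's own strand with every searched element in capitals.
CCT8, chrX:421614-421913, minus strand: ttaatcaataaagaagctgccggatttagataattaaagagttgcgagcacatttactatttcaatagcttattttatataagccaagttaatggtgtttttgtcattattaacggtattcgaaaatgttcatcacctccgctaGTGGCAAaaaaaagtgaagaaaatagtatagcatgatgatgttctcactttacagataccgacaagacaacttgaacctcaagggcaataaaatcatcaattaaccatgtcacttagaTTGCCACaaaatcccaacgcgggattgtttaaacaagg
CCT5, chrX:555664-555963, plus strand: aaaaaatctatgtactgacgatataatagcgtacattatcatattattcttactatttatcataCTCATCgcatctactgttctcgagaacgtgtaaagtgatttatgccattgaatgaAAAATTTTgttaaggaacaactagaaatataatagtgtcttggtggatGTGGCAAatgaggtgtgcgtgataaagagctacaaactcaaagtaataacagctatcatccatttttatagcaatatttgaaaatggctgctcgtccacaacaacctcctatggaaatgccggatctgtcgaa

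Every CCT subunit gene was lower at 39 °C, from the first library at 15 min to the last at 120 min. Summed over the 8 genes, the normalized counts were 15233 before the shift and then 7372, 6588, 6541, 6682 and 6416 at 15, 30, 60, 90 and 120 min. The sum was thus 0.484 times the untreated one after 15 min and 0.421 times after 120 min. With rapamycin the same sum was 15567 at time 0 and then 13817, 15446, 16111, 14806 and 14877, between 0.888 and 1.03 times the untreated one. No replicate of a time point exists to set these sums against.

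**Figure D1:**
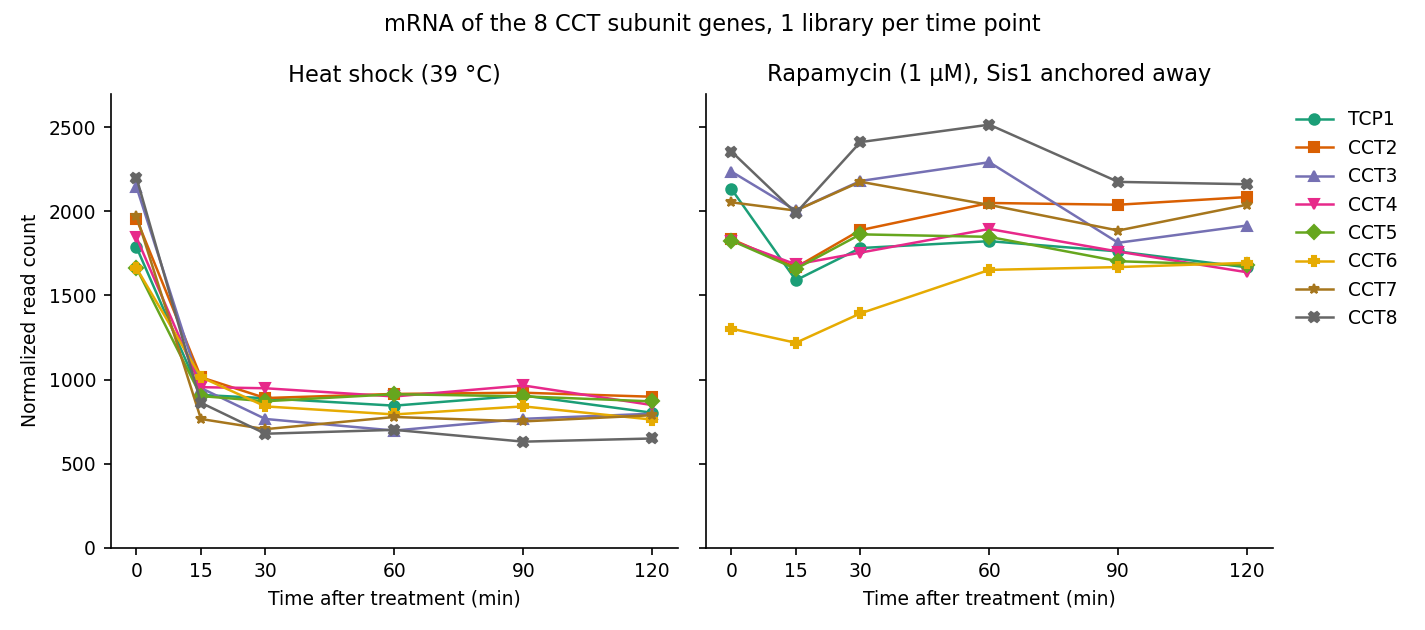
Normalized counts of each CCT gene against time after treatment (min), heat shock on the left and rapamycin on the right. Each gene has its own colour and marker, and each point is 1 library. For all 8 genes the 5 heated libraries lie below the untreated and the rapamycin libraries.

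The 3 subunits with the largest falls were CCT8, CCT3 and CCT7, which encode the theta, gamma and eta subunits. CCT8 had 2201 normalized counts before heat and 862, 678, 701, 631 and 649.9 after 15, 30, 60, 90 and 120 min. CCT3 had 2145 before heat and 949.7, 766, 697, 767 and 797 at the same times. CCT7 had 1974 before heat and 766, 705, 778, 751 and 788. CCT8 was lower at every later time than at 15 min and lowest in the 90 min library, while CCT7 was already at its later level after 15 min.

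CCT2, TCP1 and CCT4 encode the beta, alpha and delta subunits. CCT2 had 1955 normalized counts before heat and then 1014, 890.2, 915, 922 and 898. TCP1 had 1787 before heat and then 909, 889, 845, 905 and 803. CCT4 had 1845 before heat and then 955, 948, 899.6, 965 and 848. In each of these genes the 5 heated values stayed within a narrow band far below the untreated value.

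CCT6 and CCT5, which encode the zeta and epsilon subunits, had the lowest values before heat; CCT6 fell least at 15 min and CCT5 at every later time. CCT6 had 1663 normalized counts before heat and then 1015, 840.4, 793, 841 and 762. CCT5 also had 1663 before heat and then 902, 871, 913, 900.2 and 870.3. CCT6 was lower at every later time than at 15 min, while CCT5 was level over all 5 heated libraries.

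For the test, 1 model was fitted by limma to log2(normalized count + 1) of all 4937 genes. It gives each course a mean change, which is the mean log2 difference of the 5 treated libraries from time 0, and a trend, which is the further log2 change with each doubling of time from 15 min on. A gene was called where its Benjamini-Hochberg adjusted p over all genes was under 0.05. The error measures how far the treated libraries lie from a straight line in log2 time. It holds no measure of how much cultures differ, and the mean change of a course has a single untreated library behind it.

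All 8 CCT genes were called lower in the heat, where 37.2% of all genes tested were called lower and 69.8% were called in either direction. The mean change was -1.65 ± 0.15 for CCT8 (SE, limma, adjusted p = 5.04e-06), -1.44 ± 0.16 for CCT3 (adjusted p = 2.14e-05) and -1.38 ± 0.12 for CCT7 (adjusted p = 3.87e-06). It was -1.08 ± 0.11 for CCT2, -1.04 ± 0.12 for TCP1, -1.00 ± 0.12 for CCT4, -0.97 ± 0.12 for CCT6 and -0.90 ± 0.12 for CCT5, with limma adjusted p between 1.48e-05 and 6.45e-05. The median over the 8 genes was -1.06, beside -0.08 over all genes tested. Differences in the size of the fall between subunits were not tested. All 5 heated libraries lay below all 7 others for 8 of 8 CCT genes, as they did for 27.0% of all genes tested. The groups came closest in CCT6, whose highest heated value was 1015, against 1219 in the lowest of the other libraries (rapamycin, 15 min).

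**Figure D2:**
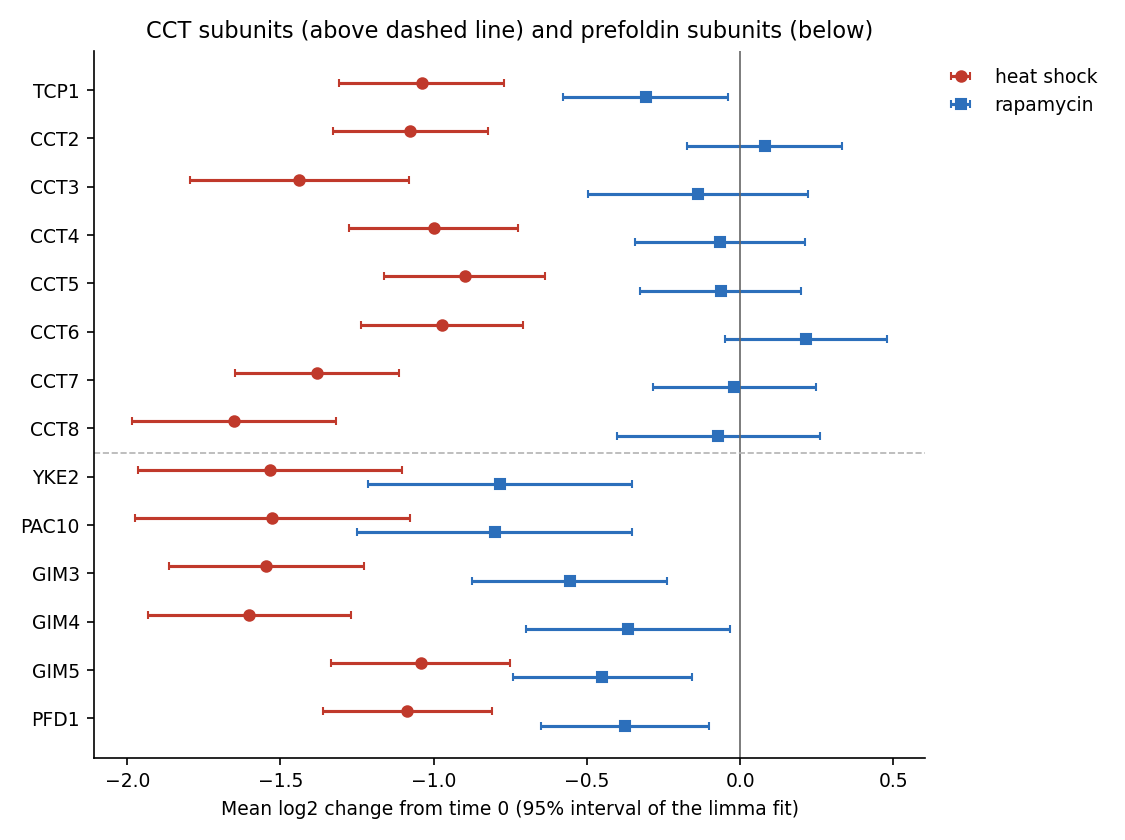
Mean log2 change from time 0 (horizontal axis) of each CCT gene (above the dashed line) and each prefoldin gene (below it) with its 95% interval from the limma fit, heat shock in red and rapamycin in blue. The CCT heat shock intervals all lie below 0, with CCT8 lowest at -1.65, while the CCT rapamycin intervals include 0 except that of TCP1 (-0.58 to -0.04).

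After the first 15 min the heated values changed little. The median log2 change of the 8 genes from time 0 was -0.96, -1.07, -1.09, -1.03 and -1.14 at 15, 30, 60, 90 and 120 min, beside -0.05, -0.04, -0.07, -0.09 and -0.09 over all genes tested. None of the 8 CCT genes was called for a heat shock trend by limma (0 of 8), beside 53.7% of all genes tested. At an unadjusted p under 0.05 there were 2, CCT6 at -0.11 per doubling of time (limma adjusted p = 0.0537) and CCT8 at -0.13 (adjusted p = 0.0803), and edgeR and DESeq2 on the recovered reads called 0. The trend depended on the scale. With every library set to the same total, 5 of the 8 trends were called higher, beside 61.6% of all genes in either direction. The median of the 8 trends was then 0.13, against 0.18 over all genes. Seen as a share of all reads in listed genes, CCT took 0.357% before heat and 0.168%, 0.174%, 0.197%, 0.206% and 0.210% at the 5 times after it. That share was lowest at 15 min, whereas the normalized sum was lowest at 120 min.

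**Figure D3:**
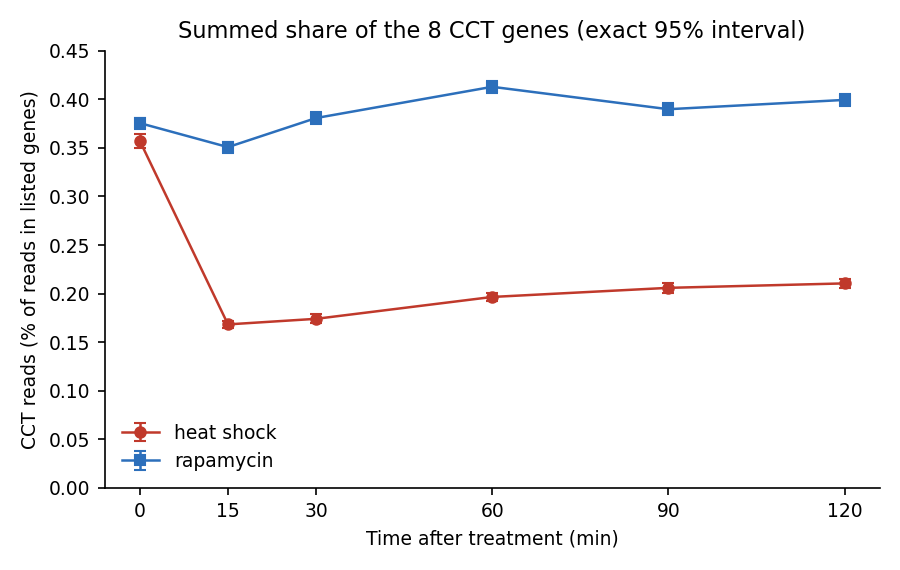
Reads of the 8 CCT genes as a percentage of all reads in listed genes against time after treatment (min), 1 point per library with its exact 95% binomial interval. The 5 heated libraries lie between 0.168% and 0.210% and the 5 rapamycin libraries between 0.351% and 0.413%.

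With rapamycin none of the 8 CCT genes was called changed by limma in its mean change (0 of 8), beside 26.3% of all genes tested. At an unadjusted p under 0.05 there was 1, TCP1, and edgeR and DESeq2 on the recovered reads called 0. The median mean change was -0.06, beside -0.05 over all genes tested. Over the same course HSP60 and HSP10, the mitochondrial chaperonin and its lid, rose by 1.44 ± 0.25 and 0.99 ± 0.24 on the log2 scale (SE, limma, adjusted p = 0.00350 and 0.0156).

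CCT8 had 2355 normalized counts at time 0 of the rapamycin course and then 1989.5, 2411, 2515, 2175 and 2160.8. CCT3 had 2236 at time 0 and then 2005, 2180.05, 2292, 1813 and 1916. CCT7 had 2053 at time 0 and then 2004, 2176, 2038, 1886 and 2039. All 3 genes moved around their untreated value, and their mean changes were -0.07, -0.14 and -0.02, with 95% intervals from -0.50 to 0.26 between them.

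CCT4 had 1826 normalized counts at time 0 and then 1684, 1754, 1895, 1761 and 1637. CCT5 also had 1826 at time 0 and then 1658, 1863, 1848, 1703 and 1679. CCT2 had 1835 at time 0 and then 1667, 1888, 2049, 2039 and 2085. CCT4 and CCT5 were lowest at 15 and 120 min, while CCT2 lay above its time 0 from 30 min on. The mean change was -0.07 for CCT4, -0.06 for CCT5 and 0.08 for CCT2, and each of the 95% intervals lay within -0.34 to 0.33.

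TCP1 and CCT6 stood at opposite ends. TCP1 had 2133 normalized counts at time 0 and then 1590.35, 1781, 1822, 1762 and 1667, so that all 5 rapamycin values lay below their own untreated value. Its mean change was -0.31 with a 95% interval of -0.58 to -0.04 (limma adjusted p = 0.0851). The other untreated library, that of the heat shock course, held 1787 normalized counts, which lies within the range of those 5 values. CCT6 had 1303 at time 0 and then 1219, 1393, 1652, 1668 and 1694. Its mean change was 0.22 with a 95% interval of -0.05 to 0.48 (limma adjusted p = 0.203), and its last 3 values were close to the 1663 of the untreated heat shock library.

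CCT6 was the 1 subunit of 8 called for a trend with rapamycin, where 18.2% of all genes tested were called and 8.32% were called higher. It rose by 0.17 ± 0.04 on the log2 scale per doubling of time (SE, limma, adjusted p = 0.0307), a value that does not use time 0. The other 7 trends lay between -0.04 and 0.10. The call of CCT6 rested on every library of the course: without any 1 of the 5 rapamycin libraries the trend was 0.14 to 0.19 with a limma adjusted p between 0.0506 and 0.293. Between the courses the CCT6 trend differed by -0.28 ± 0.06 (heat shock minus rapamycin, limma, adjusted p = 0.00512), the 1 of 8 called, beside 47.1% of all genes tested in either direction and 21.0% lower. Without the 15 min library of heat shock the adjusted p of that difference was 0.0610, and without that of rapamycin 0.0528.

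The difference between the courses themselves was called for all 8 genes. The mean change in heat shock minus that with rapamycin was between -0.73 ± 0.17 for TCP1 (SE, limma, adjusted p = 0.00610) and -1.58 ± 0.21 for CCT8 (adjusted p = 0.000322). For comparison, 24.2% of all genes tested were called lower in that difference and 45.9% in either direction. Both changes rest on their own untreated library. The untreated libraries, heat shock minus rapamycin, differed in CCT6 by 0.35 and in TCP1 by -0.26, and in the other 6 genes by -0.14 to 0.09 on the log2 scale, beside an SD of 0.33 over all genes tested. For rapamycin, 0 of 8 CCT genes had all 5 treated values below both untreated libraries, which held for 24.0% of all genes tested, and 0 of 8 had them above both, which held for 15.8%.

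The levels of the 8 subunits per kilobase of coding sequence were within a factor of 1.76 of each other in every library. Before heat CCT3 was highest at 1336 normalized counts per kb and CCT5 lowest at 985, a ratio of 1.36. In the heated libraries the ratio of highest to lowest was 1.38, 1.50, 1.41, 1.64 and 1.49 at 15, 30, 60, 90 and 120 min. The order changed with heat. CCT8 was the lowest of the 8 per kb from 30 min on, at 370 to 411 normalized counts per kb, against 1289 before heat, when it was the second highest. CCT4 and CCT2 were the highest 2 from 30 min on, at 535 to 608. Since each value is 1 library, no spread is known against which neighbours in this order could be told apart.

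**Figure D4:**
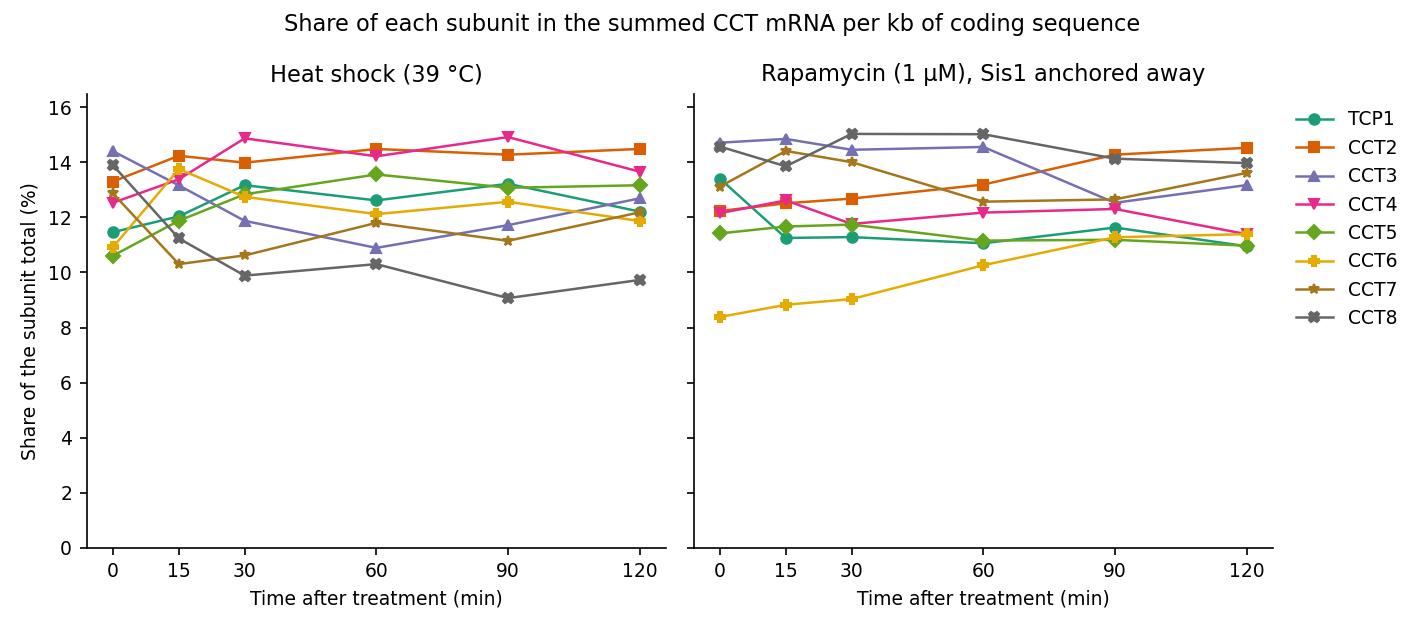
Share of each CCT gene in the summed normalized counts per kb of coding sequence of the 8 genes (percent) against time after treatment (min). Heat shock is on the left and rapamycin on the right, with 1 point per library. The share of CCT8 lay between 9.07% and 11.2% in heated libraries, against 13.9% before heat, and the share of CCT6 was 11.4% at 120 min of rapamycin, against 8.38% at time 0.

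Shares were taken of the summed normalized counts per kb of coding sequence. CCT8 held 13.9% before heat and 11.2%, 9.89%, 10.3%, 9.07% and 9.73% at the 5 times after it. CCT5 held 10.6% before heat and 11.9%, 12.8%, 13.6%, 13.1% and 13.2% after it. In the rapamycin course the highest level per kb over the lowest was 1.28 at 90 min, against 1.76 at time 0. The subunit at the low end at time 0 was CCT6, whose share was 8.38% at time 0 and 8.83%, 9.03%, 10.3%, 11.3% and 11.4% at the later times. Equal shares would be 12.5% each.

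The profiles of the 8 genes were alike over the 12 libraries, which fall into the 5 heated ones and the 7 others. On log2 values centred within each course, Pearson's r of a subunit with the mean of the other 7 ran from 0.87 (CCT6) to 0.99 (CCT8) over the 12 libraries. Within the 6 libraries of the heat shock course it was 0.97 to 1.00, and within the 6 of the rapamycin course 0.13 (CCT6) and 0.23 (CCT7) to 0.95 (CCT8). These values are a description, and all genes of a library share its depth and scaling.

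The genes outside CCT with the most similar profile, among 4811 with a mean of at least 50, were TOS1 and CLU1 (both r = 0.98), then SRB2, ARF1, ARC1 and GCN20 (all 0.97), PRO2, ASN1 and SRM1 (all 0.96) and SEH1 (0.95), over the 12 libraries. TOS1 encodes a cell wall protein, CLU1 a protein bound to initiation factor eIF3, SRB2 a Mediator subunit and ARF1 a GTPase of vesicle coating. ARC1 encodes a cofactor of tRNA synthetases, GCN20 a partner in activating the kinase Gcn2, PRO2 and ASN1 enzymes of proline and asparagine synthesis, SRM1 the exchange factor of the GTPase Ran and SEH1 a nuclear pore protein. In all, 151 genes had a higher r than CCT6, the lowest of the 8 subunits, has with the rest of CCT. The most opposite profiles were those of XBP1, ROM1, ATG34, MCH2 and COX26, all at r = -0.97. XBP1 encodes a stress-induced repressor, and it had 78.4 normalized counts before heat and 645, 807, 767, 824 and 619.8 after it.

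Prefoldin hands unfolded actin and tubulin to CCT, and its 6 subunit genes fell with CCT in the heat. All 6 were called lower, beside the 37.2% of all genes, with mean changes of -1.04 (GIM5) to -1.60 (GIM4) and a median of -1.53. With rapamycin, where no CCT gene was called, 5 of 6 prefoldin genes were called lower, beside 13.9% of all genes tested. YKE2 had 202.6 normalized counts at time 0 of that course and then 118, 108, 109, 121 and 132. PAC10 had 226 at time 0 and then 141, 128, 147, 109.6 and 125. GIM3 had 626 at time 0 and then 495, 417, 438, 387 and 397. In these 3 genes of 6 all 5 rapamycin values lay below both untreated libraries, as for 24.0% of all genes tested. The untreated library of the other course held 218, 249.6 and 560.5 for YKE2, PAC10 and GIM3.

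The mean change with rapamycin was -0.78 ± 0.19 for YKE2 (SE, limma, adjusted p = 0.0160), -0.80 ± 0.20 for PAC10 (adjusted p = 0.0172) and -0.56 ± 0.14 for GIM3 (adjusted p = 0.0188). It was -0.45 for GIM5 (limma adjusted p = 0.0311), -0.38 for PFD1 (0.0473) and -0.37 for GIM4 (0.0957), the 1 not called. The PFD1 call was lost in 12 of 22 alternatives, and in another, with the untreated libraries exchanged, its change was 0.05; the GIM5 call was lost in 7 of 22 and the GIM3 call in 3 of 22. GIM4 had 584 to 792 normalized counts in the rapamycin libraries, against 861 in the untreated library of that course and 562 in that of the heat shock course. When each course was set against the untreated library of the other one, 2 of 6 were called, beside 18.7% of all genes in either direction. Leaving out the 15, 90 or 120 min rapamycin library left 3, beside 20.2%, 18.5% and 19.8% of all genes. The median change of CCT in the 5 rapamycin libraries was -0.14, 0.03, 0.04, -0.11 and -0.12 at 15, 30, 60, 90 and 120 min, and that of prefoldin was -0.33, -0.42, -0.47, -0.71 and -0.63. The difference between the 2 lists was not tested.

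**Figure D5:**
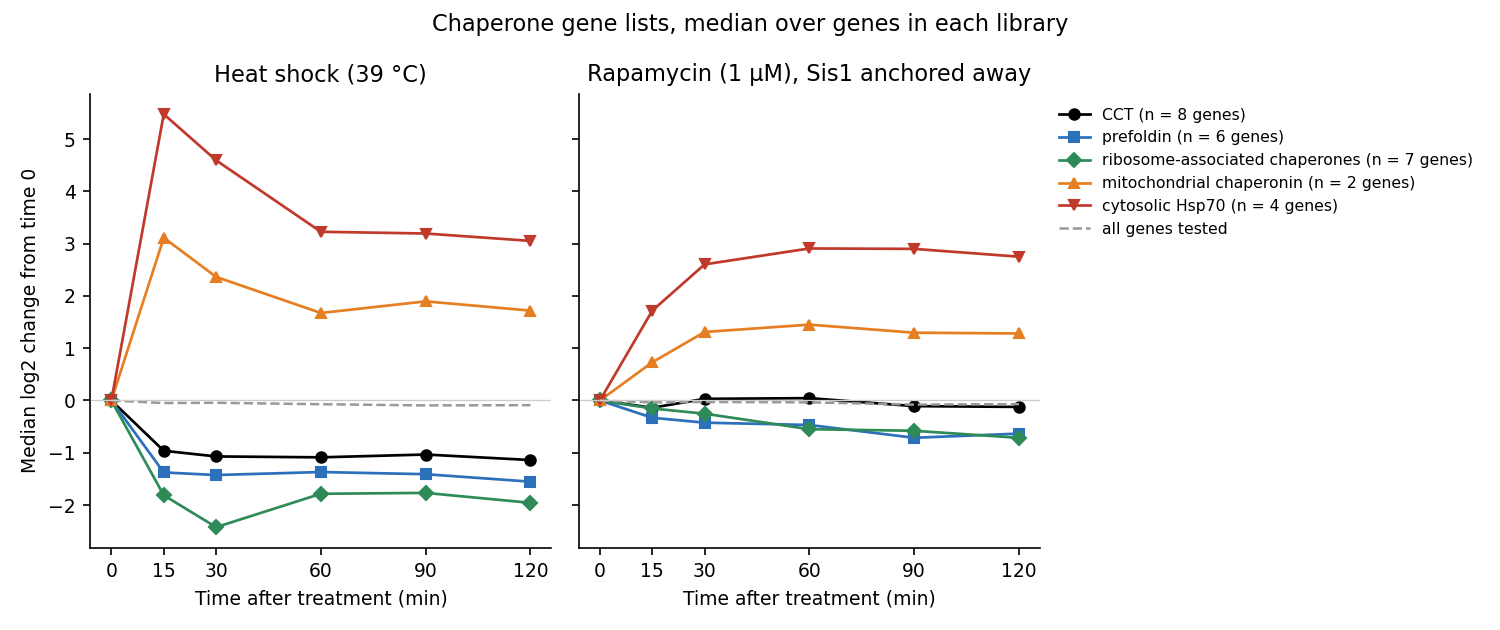
Median log2 change from time 0 over the genes of each chaperone list against time after treatment (min), heat shock on the left and rapamycin on the right, with the median of all tested genes dashed; each point is 1 library. In heat shock CCT, prefoldin and the ribosome-associated chaperones lie below 0 and the mitochondrial chaperonin and Hsp70 above it, while with rapamycin CCT stays between -0.14 and 0.04.

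PLP2, an essential gene whose product works with CCT in folding actin, was lower in the heat. It had 439 normalized counts before heat and then 188, 235, 226, 188 and 186, a mean change of -1.11 ± 0.19 (SE, limma, adjusted p = 0.000433). All 5 heated libraries lay below the 7 others for PLP2, as for 27.0% of all genes tested. With rapamycin PLP2 changed by -0.57 (limma adjusted p = 0.0495), a call that was lost in 11 of 22 alternatives. BUD27, which encodes a protein related to prefoldin, was called lower in heat, at -2.15, and with rapamycin, at -0.82, where the call was likewise lost in 11 of 22 alternatives. TAP42, which encodes a regulator of protein phosphatases, was called in neither course. Of all genes tested, 37.2% were called lower in heat and 13.9% with rapamycin.

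The 11 genes for proteins that CCT folds did not move as a group. In heat 2 were called higher (ARP3 and CDC55), beside 32.6% of all genes tested, and 5 lower (TUB1, TUB2, TUB4, CDC20 and STE4), beside 37.2%, with a median change of -0.36. ACT1, which encodes actin, had 14848 normalized counts before heat and then 17267, 15527, 13298, 12609 and 10773. Its mean change was -0.12 ± 0.22 (SE, limma, adjusted p = 0.651). TUB2, which encodes beta-tubulin, had 2404 before heat and then 1549, 1222, 1125, 1336 and 1279, a mean change of -0.89 ± 0.16 (adjusted p = 0.000450). TUB4, gamma-tubulin, changed by -1.13 ± 0.13 (limma adjusted p = 2.14e-05). TUB1 and TUB3 encode closely related alpha-tubulins, between which reads can be divided by the counting, and changed by -0.81 (limma adjusted p = 0.00503) and -0.36 (0.0623). The TUB1 call turned to 0.12 when the untreated libraries were exchanged, since TUB1 had 1295 normalized counts in the untreated heat shock library and 678 in the other.

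With rapamycin 1 of the 11 was called higher (ARP3, 0.69), beside 12.3% of all genes tested, and 2 lower (CDC20, -1.15, and STE4, -0.59), beside 13.9%. The STE4 call was lost in 4 of 22 alternatives. ACT1 had 12371 normalized counts at time 0 of that course and then 12022, 12507, 11452, 11657 and 11373, a mean change of -0.07 (limma adjusted p = 0.840). The ARP3 change was 0.02 with the untreated libraries exchanged. Of the 6 tubulin-folding cofactors, 1 was called higher (PAC2) and 3 lower (CIN2, CIN4 and ALF1) in heat, beside 32.6% and 37.2% of all genes tested. With rapamycin limma called 0, beside 26.3% of all genes in either direction, and 2 (CIN4 and RBL2) had an unadjusted p under 0.05.

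The mitochondrial chaperonin HSP60, which forms a similar barrel, had 2159 normalized counts before heat and then 18588, 11100, 6593, 7848 and 6832, a mean change of 2.12 ± 0.25 (SE, limma, adjusted p = 3.10e-05). HSP10, its lid, had 1062 before heat and then 9255, 5481, 3544, 4054 and 3642, a mean change of 2.19 ± 0.24 (adjusted p = 1.94e-05). All 5 heated libraries lay above the 7 others for both genes, as for 22.1% of all genes tested. Both were highest at 15 min. Their promoter windows both held GAANNTTC and TTCNNGAA, beside 12.0% and 13.0% of all windows, and neither held GTGGCNA, beside 9.07%. Of the 7 genes for chaperones that sit on the ribosome, 6 were called lower and 0 higher in heat, beside 37.2% and 32.6% of all genes tested, with a median of -1.94. With rapamycin 3 were called lower (EGD2, SSZ1 and ZUO1) and 0 higher, beside 13.9% and 12.3% of all genes tested, with a median of -0.44. The calls of SSZ1 and ZUO1 were lost in 12 and 11 of 22 alternatives. Of the 4 cytosolic Hsp70 genes of the SSA family, 3 were called higher in heat and 4 of 4 with rapamycin, beside 32.6% and 12.3% of all genes tested, although reads of the near-identical SSA1 and SSA2 can be divided by the counting. SSA2, the gene not called in heat, had 6269 normalized counts before heat and then 17465, 5833, 3116, 3100.4 and 2814, a mean change of -0.36 (limma adjusted p = 0.338). Of the 4 SSA windows, GAANNTTC was in 1 (SSA2) and TTCNNGAA in 2 (SSA1 and SSA2). Of the 7 windows of the ribosome-associated chaperones, GAANNTTC was in 1 (EGD1) and TTCNNGAA in 1 (SSB2). Any link of these elements to the direction of change was not tested.

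The heptamer shared by the CCT windows was in 2 of 6 prefoldin windows (YKE2 and GIM5) and in 1 of 11 windows of the CCT clients (TUB1). Among all windows the share was 9.07%. It was in 0 of 6 windows of the tubulin-folding cofactors, 0 of 7 of the ribosome-associated chaperones and 0 of 4 of the SSA genes. The windows of PLP2, BUD27 and TAP42 did not hold it either. Among all genes outside CCT it was in 7.07% of the windows of genes called lower in heat, in 10.2% of those called higher and in 10.3% of those not called. With rapamycin it was in 5.99% of the windows of genes called lower, 15.3% of those called higher and 8.63% of those not called. These shares were not tested.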

How the data were processed

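Per the labels' protocols, polyA RNA of the 12 libraries was extracted with phenol and chloroform and made into NEBNext Ultra libraries; Bowtie, HTSeq and sacCer3 are named in the submitters' processing notes. Strand use and the normalization are not given in the sources used here. The authors deposited normalized gene counts, a signal on a linear scale. Dividing by what 1 read is worth in a library (0.813 to 1.43) turned 100% of values into whole reads within 0.05 read; the implied size factors were 0.970 to 1.03 times median-of-ratios factors. The number of columns left unused was 0. Of the systematic names, 5023 were found in RefSeq R64, all 8 members included, and 22 were not.

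Values were analysed as log2(value + 1), which understates the change of genes with few reads. Genes with a mean of at least 10 were tested (108 left out). Limma 3.58.1 in R 4.3.3 fitted, over all 12 libraries, an intercept per course set by time 0, a step after treatment, and a slope over log2(time) with the 5 treated times centred at 0, with eBayes trend and Benjamini-Hochberg adjustment over all genes (residual df 6, prior df 4.29). The 2 courses share 1 error per gene. edgeR 4.0.16 and DESeq2 1.42.0 on the recovered reads were alternatives, with other scalings, filters and left-out libraries. A limit for 0 reads, 3 reads, is 2.44 to 4.28 in the table's unit.

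The members and gene lists were chosen with earlier results of these data known. All 8 CCT genes were named, with PLP2 and the members of prefoldin, the mitochondrial chaperonin and actin and tubulin, and the 10 genes most like and 5 most unlike CCT by Pearson's r; members of other lists were named after their values were seen. A further gene covered by the rule is not reported here.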

Additional observations from a re-analysis of the deposited data

How the results depend on the processing

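Across 22 alternatives all 8 CCT genes remained called lower in heat shock (176 of 176 gene values, from -1.75 to -0.56), and in heat shock minus rapamycin (176 of 176, from -1.78 to -0.49). The count with rapamycin was 0 in 21 and 1 (TCP1, adjusted p = 0.0470) with all listed genes tested. Equal totals moved the median heat change of all genes to 0.20, against -0.08.

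Heat shock trends called were 1 with all listed genes tested and 5, all higher, with equal totals, and leave-one-out counts were 0 to 1. Over all genes, 52.8% and 61.6% were called in the first 2 of these settings, in either direction. Rapamycin trends called were 2 with equal totals, 2 with quantile normalization, 0 with a slope in minutes and 0 with a shared time 0, and 0 to 1 with a library left out; in the counts of 0 the gene lost was CCT6. Trend differences called were 2 with all listed genes tested and 0 to 1 with a library left out; with equal totals the 1 called was higher. The prefoldin count with rapamycin was 3 with equal totals, 2 with quantile normalization and 2 with a slope in minutes. It was 2 with exchanged time 0 and 3 to 6 with a library left out. The prefoldin count in heat was 6 throughout. Over the 22 alternatives, 15.6% to 33.4% of all genes were called with rapamycin and 66.8% to 75.8% in heat, in either direction.

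Some mean changes turned sign, mostly rapamycin changes near 0. With equal totals they were 0.028 for CCT4, 0.032 for CCT5, 0.076 for CCT7 and 0.024 for CCT8; with quantile normalization 0.10, 0.10, 0.13 and 0.068 for the same genes. CCT7 was 0.030 with TMM scaling, 0.032 by edgeR and 0.010 by DESeq2. With a shared time 0 CCT5 was 0.0046 and CCT7 0.00942. With exchanged time 0 CCT2 was -0.012, CCT5 0.072, CCT6 -0.14, CCT7 0.038, CCT8 0.027 and PFD1 0.053, and TUB1 in heat 0.12. With a library left out CCT7 was -0.044 to 0.015, above 0 without rapamycin 15 min or 90 min (0.0065), and CCT8 -0.11 to 0.012, above 0 without rapamycin 15 min.

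Of 50 alternatives to the median CCT change by library, 38 kept its sign and moved less than the SD between subunits. With equal totals it was -0.73, -0.64 and -0.65 at 60, 90 and 120 min of heat, and 0.019 and 0.032 at 90 and 120 min of rapamycin. With quantile normalization it was -0.76, -0.73, -0.65 and -0.70 at 30, 60, 90 and 120 min of heat, and 0.21, 0.14 and 0.097 at 60, 90 and 120 min of rapamycin.

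No paired analysis was possible because each group holds 1 library and no replicate number links libraries across courses. The causes of these shifts were not tested. The error is not that between cultures, so the p-values describe these 12 libraries.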
